A study of Saccharomyces cerevisiae with 72 samples.

Results

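Chromosome XIV of budding yeast (Saccharomyces cerevisiae) is described here through all of the 1-kb bins that the deposited replication tables list on it, chosen by chromosome name alone and by no measured value. There were 722 such bins listed in every one of the 44 tables, of 11277 in the genome, and 718 of them had a replication time in all 4 strains, of 11260 in the genome. The first listed bin began at position 16001 and the last ended at 781000 (build sacCer3). The last annotated gene, YNR077C, ends at 783541. The RefSeq annotation of that assembly places 420 genes on the chromosome, of which 400 code for proteins and 14 for tRNAs. Its arms meet between DOM34 (627456 to 628616), which acts in the rescue of stalled ribosomes, and CIT1 (629622 to 631061), the mitochondrial citrate synthase, and the centromere was taken to lie there.

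Cells of the W303 background and mating type a were arrested in G1 with 5 ug/ml of the mating pheromone alpha factor and treated with 1 mM auxin (IAA) during a 30-minute shift to 37 °C. They were then released into YPAD medium with 1 mM IAA, and DNA was sequenced at 15, 20, 25, 30, 35, 40, 45, 50, 60, 70 and 80 minutes. All strains shared swe1delta::TRP1, cse4delta::NatMX with leu2::CSE4-HA6::LEU2, CDC55-AID::KanMx and his3::PGPD1-osTir1::HIS3, so the PP2A subunit Cdc55 carried an auxin-inducible degron in every group, controls included. Strain A also carried SLD3-13myc, strain B sld3-R(2A)-13myc, strain C PPH3-AID::HphMx with SLD3-13myc, and strain D PPH3-AID::HphMx with sld3-R(2A)-13myc. Pph3 is the catalytic subunit of the phosphatase PP4 and Sld3 a factor that origins need in order to fire. The design asks how the allele and the loss of Pph3, alone and together, alter the course of origin firing. How far the tagged proteins were degraded was not measured in the files used here.

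Eukaryotic chromosomes are copied from many origins, which fire at different times in S phase. A site that holds an active origin is copied before its neighbours and forms an early peak in a profile of replication time, and forks that meet leave a late valley between peaks. The height of a peak reflects both how early an origin fires and in how many cells it does so, which a population profile does not separate. Centromeres of budding yeast are known to be copied early.

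The measurement is the ratio that the authors deposited for each bin, S-phase reads over G1 reads of the same strain times a scale factor for the library, on which 1 stands for unreplicated and 2 for replicated DNA. Over the 44 libraries the factor ran from 1.039 to 2.0, and the tables held 11303 to 11323 bins. Read depth is unknown, and intervals that rest on it are left out. The spread between neighbouring bins of chromosome XIV stood at 0.0401 to 0.0693 of the library median. Each strain and minute had 1 library, so no difference between strains has a replicate check and no test was possible. Replication time, written Trep, was read as the point where the 5-kb mean of the ratio, fitted to rise monotonically, passed 1.5, in minutes after release. Trep was also computed from even and from odd bins alone in windows of 9 kb. The standard deviation of their difference on chromosome XIV, divided by 2, is called the Trep error here. It was 0.63 minutes for A, 0.57 for B, 0.72 for C and 0.93 for D. This error is that of a 9-kb mean and covers noise between bins, not between cultures. The 5-kb Trep rests on fewer bins, so its own error should be larger and was not computed.

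Chromosome XIV was copied late in every strain. Its median Trep was 35.3 minutes for A, 43.4 for B, 41.0 for C and 49.8 for D, against 32.6, 39.1, 36.1 and 43.8 over the other 15 chromosomes. Among the 16 chromosomes it was the second latest after chromosome IV in A, C and D and level with it in B, where chromosome IV stood at 43.3 minutes. The distance from the other chromosomes was 2.67 minutes for A, 4.30 for B, 4.90 for C and 5.98 for D, so it was smallest in A and largest in D. The latest 10% of all bins held 15.0% of chromosome XIV bins for A, 19.1% for B, 18.7% for C and 21.6% for D. The earliest 10% held 5.15%, 3.76%, 5.43% and 4.6% in the same order.

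Without the scale factors, chromosome XIV was again later than the rest in every strain. The median ratio of chromosome XIV over the library median was 0.994 to 1.01 at 15 minutes and 0.996 to 1.0 at 80 minutes. Between these times it fell to 0.930 at 35 minutes in A, to 0.895 at 40 minutes in B, to 0.871 at 40 minutes in C and to 0.872 at 50 minutes in D. The low point was thus deeper in B, C and D than in A, and latest in D. Relative timing is the area under this quotient from 15 to 80 minutes minus the genome median, with lower values for later bins. The median of chromosome XIV minus that of the other chromosomes was -0.92 minutes for A, -1.47 for B, -1.38 for C and -2.29 for D.

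**Figure D1:**
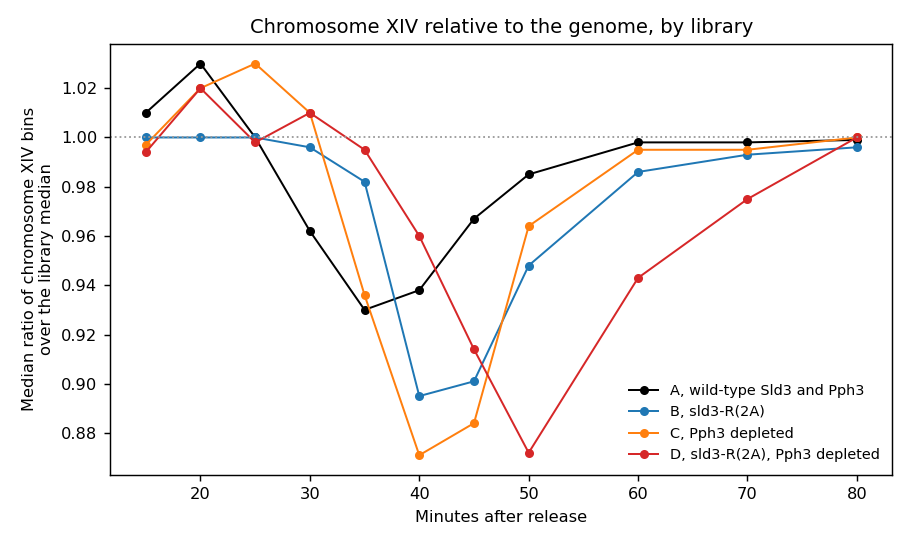
Median ratio of chromosome XIV bins divided by the median of all bins of the same library (y axis, no unit) against minutes after release (x axis), 1 point per library, with 1 line for each of the 4 strains, all of which carry the Cdc55 degron. The lines start near 1, dip to 0.930 in A at 35 minutes and to 0.872 in D at 50 minutes, and return to near 1 at 80 minutes.

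Common landmarks were read from Trep averaged over the 4 strains: 9 early peaks, each the lowest Trep within 10 kb on both sides with a prominence of at least 2 minutes, and 10 valleys between or outside them. They are numbered from the left end, P1 to P9 and V1 to V10. Since this mean profile includes every strain, that valleys were mostly later than peaks follows from the choice and is not a result. In a single strain a valley could still be earlier than its neighbouring peak. V4 minus P3 was -0.7 minutes in A, and V9 minus P9 was -0.4 in D. Peaks had a median Trep of 30.0 minutes for A (range 23.8 to 35.4), 40.8 for B (24.8 to 46.0), 36.0 for C (26.2 to 45.0) and 47.4 for D (31.9 to 56.1). Valleys had a median of 38.9 for A, 48.0 for B, 45.9 for C and 56.7 for D. Peaks lying beside a stretch with no listed bins could have their true centre inside it, which touches P3 and P7 and, at a distance of 4 kb, P1.

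**Figure D2:**
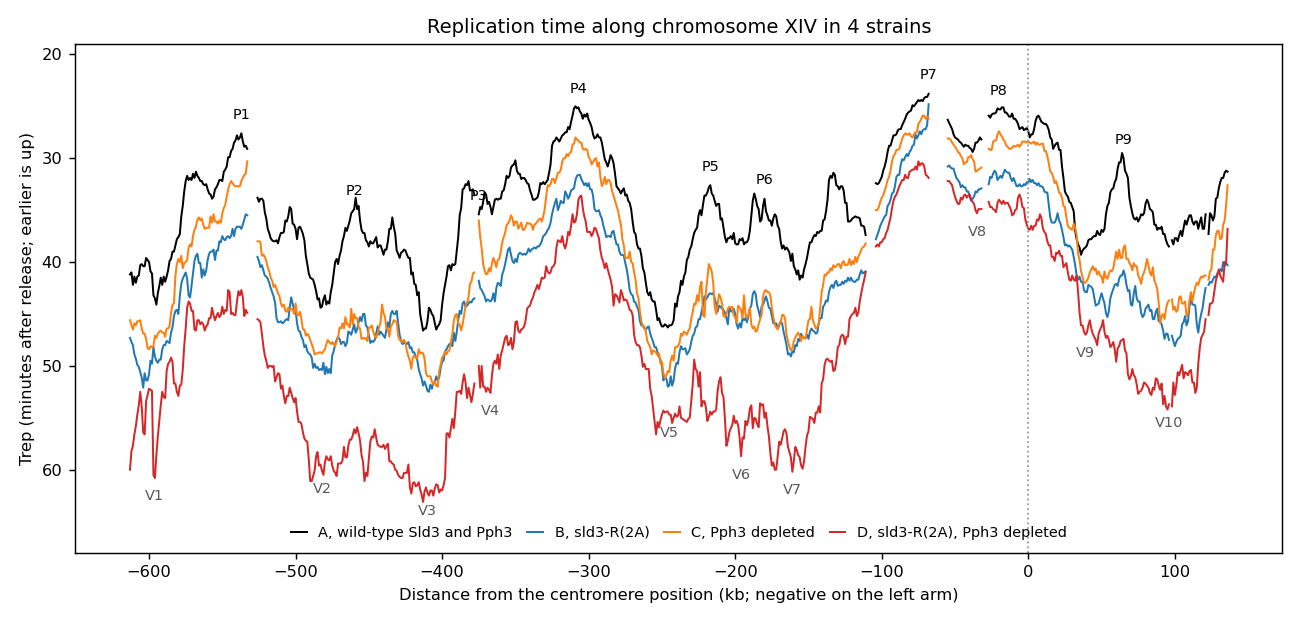
Trep in minutes after release (y axis, earlier times upward) of each bin of chromosome XIV against distance from the centromere position in kb (x axis, dotted line at 0), with 1 line per strain and gaps where no bin has a value. Labels mark the 9 common peaks and 10 valleys. Strain A lies above the others almost throughout, and D is far below it on the left arm around P2 and P5 and close to it around P7 and P8.

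The 3 earliest peaks were P7, P8 and P4, and all lay on the left arm. P7 (561001 to 562000) sits between tRNA genes and beside an unlisted stretch of 6 bins. Its Trep was 23.8 minutes for A, 24.8 for B, 26.2 for C and 31.9 for D. P7 in B was later than in A by only 1.0 minute, the smallest B minus A value of the 19 landmarks, and the other 8 peaks gave 6.4 to 11.1 minutes. In B the ratio at P7 had already reached 1.51 at 25 minutes, against 1.61 in A, 1.38 in C and 1.32 in D, while at 30 minutes it was 1.58 in B and 2.04 in A. The crossing of 1.5 in B thus fell on a value just above the threshold, after which the rise in B was slower than in A.

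P8 (609001 to 610000) lies in HEF3, which encodes a translation elongation factor, and SPO1, a gene of meiosis. Its Trep was 25.3 minutes for A, 31.9 for B, 27.4 for C and 34.0 for D. P4 (322001 to 323000) lies in BNI5, which encodes a septin-associated protein, and gave 25.1 minutes for A, 31.6 for B, 28.3 for C and 34.0 for D. P8 and P4 thus differed by less than 1 minute in every strain. At 30 minutes the ratio at P4 was 1.82 for A, 1.44 for B, 1.58 for C and 1.38 for D, and at 50 minutes all 4 strains lay between 1.92 and 2.07. D minus A was 8.1 minutes at P7, 8.7 at P8 and 8.9 at P4.

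The 3 latest peaks were P2, P6 and P5. P2 (169001 to 170000) lies in RTC4 and had a Trep of 34.9 minutes for A, 46.0 for B, 45.0 for C and 56.1 for D. P6 (449001 to 450000) lies in APP1, which encodes a phosphatidate phosphatase, and YPT53, a small GTPase of the endocytic route, with 33.9 minutes for A, 43.7 for B, 42.8 for C and 55.0 for D. P5 (412001 to 413000) holds YNL115C and RPC19, which encodes a subunit shared by RNA polymerases I and III, with 32.6 minutes for A, 43.0 for B, 40.5 for C and 54.4 for D. All of them lay further behind P7 in D than in A. At 50 minutes the ratio at P2 was 1.89 for A, 1.64 for B, 1.74 for C and 1.32 for D, and at P5 it was 1.82, 1.66, 1.87 and 1.36. D therefore stood below 1.40 at these peaks when the other strains were above 1.6.

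The remaining peaks fell between these groups. P1 (92001 to 93000), in SEC21, which encodes a subunit of the COPI vesicle coat, gave 27.6 minutes for A, 36.8 for B, 32.2 for C and 42.7 for D. P9 (694001 to 695000), the only common peak of the right arm, in ARC35 (Arp2/3 complex) and MRPS12 (mitochondrial ribosome), gave 30.0, 40.8, 38.6 and 47.4 minutes. P3 (254001 to 255000), in YNL208W, had a prominence of 2.17 minutes and lies beside the 2 unlisted bins of SSB2, which encodes a ribosome-associated chaperone. There the single bin in C was at 1.2 of the library median at 15 minutes and at 1.18 at 80 minutes, while A was at 0.94 at both times. P3 itself gave 35.4 minutes for A, 41.8 for B, 36.0 for C and 50.0 for D. The bin of C thus stood high at both ends of the time course. With a running maximum in place of the isotonic fit in time, Trep of C at P3 was 29.1 minutes, so the direction of C minus A there depended on the fit. When peaks were called in each strain alone, a peak began at 254001 in B and C, but not in A or D.

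The 3 latest valleys were V3, V2 and V5, all on the left arm. V3 (219001 to 220000) lies in URE2, a regulator of nitrogen use, and had a Trep of 45.7 minutes for A, 52.4 for B, 51.0 for C and 62.2 for D. V2 (147001 to 148000) lies in YIF1, a gene of Golgi transport next to POL2 (DNA polymerase epsilon), and gave 44.3, 50.4, 48.8 and 60.1 minutes. V5 (384001 to 385000) lies in FAR11, a gene of pheromone arrest, and gave 46.1, 51.9, 50.6 and 54.7 minutes. V5 and V3 were the latest valleys of A and differed there by less than the Trep error. In D, V5 was earlier than V1, V2, V3, V6 and V7, which lay at 58.7 minutes or later.

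Before they rose, ratios in these valleys did not stay flat. At V5 in C the ratio was 1.27 at 25 and 30 minutes, 1.08 at 40 minutes and 1.47 at 50 minutes. At V3 in C it was 1.33 at 30 minutes and 1.15 at 45 minutes. At V3 in D it was 1.32 at 35 minutes, 1.28 at 50 minutes and 1.40 at 60 minutes. DNA content per cell does not fall as replication goes on, so the scale is approximate at these levels, and the cause of the dips was not tested.

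**Figure D3:**
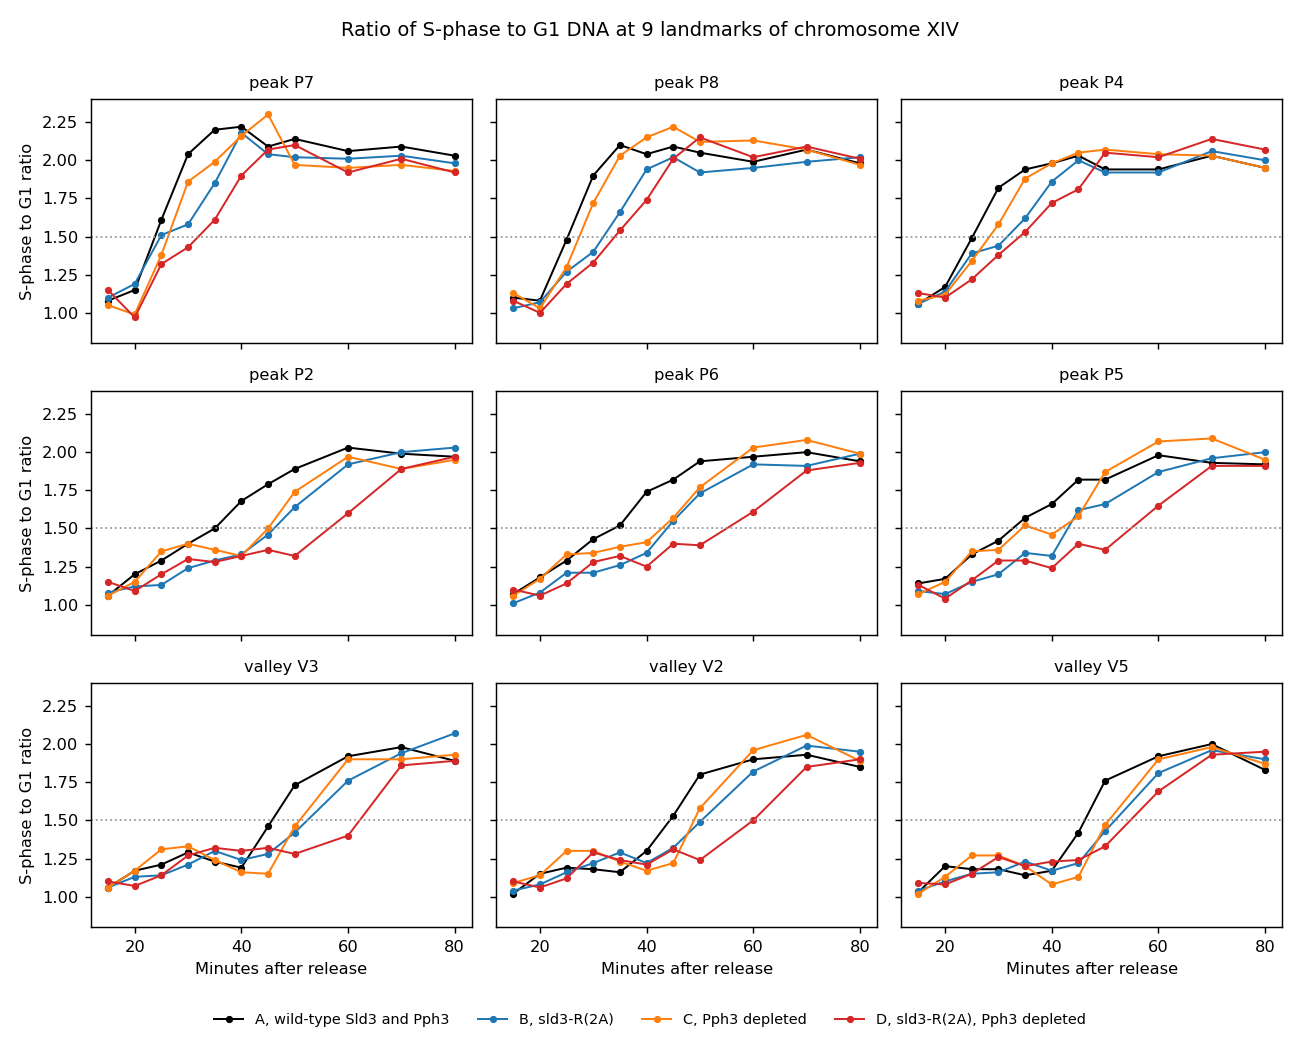
S-phase to G1 ratio averaged over 5 kb (y axis, no unit) against minutes after release (x axis) at the 3 earliest peaks (top), the 3 latest peaks (middle) and the 3 latest valleys (bottom), 1 point per library and 1 line per strain, with a dotted line at 1.5. At P2, P6 and P5 strain D stays at or below 1.40 until 50 minutes, while at P7, P8 and P4 it is at 2.05 or above by then.

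Every common landmark was later in B, C and D than in A, although C minus A at P3 was within the Trep error. Over the 9 peaks the B minus A difference of Trep ran from 1.0 to 11.1 minutes (median 9.2), C minus A from 0.6 to 10.1 (median 4.5) and D minus A from 8.1 to 21.8 (median 15.1). Over the 10 valleys it ran from 4.3 to 9.4 (median 6.4), from 2.7 to 9.1 (median 4.8) and from 6.8 to 21.0 (median 16.2). These 3 comparisons share strain A. With common scale factors, the average over strains at a given minute, D minus A at the landmarks shrank to between 1.3 minutes at V9 and 14.2 at V7.

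Over all 718 bins, the median delay on chromosome XIV was 7.24 minutes for B minus A, 5.00 for C minus A and 13.85 for D minus A, where the other chromosomes gave 6.36, 3.46 and 10.97. For B minus A and C minus A, chromosome XIV had the largest median of the 16 chromosomes, and for D minus A it came second after chromosome IV at 14.52. Compared with B, D was later by a median of 6.13 minutes (4.46 elsewhere), and compared with C by 8.31 minutes (7.33 elsewhere). The delay of D beyond the sum of those in B and C, the interaction, had a median of 0.78 minutes on chromosome XIV and 1.00 elsewhere. With common scale factors that median was -0.10 minutes on chromosome XIV, so its sign depended on the factors. It was 0.21 without the 50-minute libraries, 0.43 without those of 60 minutes and 1.22 without those of 45 minutes.

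Trep of B exceeded that of A by over 10 minutes in 72 bins of chromosome XIV (10.0%, beside 5.44% of all bins), and C exceeded A by that much in 32 (4.46%, beside 2.15%). The delay of D relative to A passed 10 minutes in 505 bins (70.3%, beside 58.5%) and 20 minutes in 65 (9.05%, beside 4.09%). D exceeded B by over 10 minutes in 124 bins (17.3%, beside 8.45%) and C in 232 (32.3%, beside 21.8%). The share on chromosome XIV was above the share of all bins in each of these 6 counts. The count above 20 minutes dropped to 43 when the 50-minute libraries were left out and to 30 without those of 60 minutes, and it was 0 with common scale factors.

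Bins of similar timing elsewhere gave a nearer comparison. Bins of the genome were divided into 10 equal groups by the mean Trep of B and C, libraries that do not enter D minus A. The later groups held more of chromosome XIV, with 18.0% of its bins in group 9 and 19.5% in group 10, the latest. Weighted to these shares, the mean of the group medians of D minus A on the other chromosomes was 12.69 minutes. The overall median was 13.85 on chromosome XIV and 10.97 for the unweighted rest, and the mean on chromosome XIV was 13.55. A mean of group medians is not the same statistic as an overall median, so these values compare only roughly. In the 5 earlier groups the chromosome XIV median was at or below the others, for example 10.91 beside 11.75 minutes in group 4. In the 5 later groups it was above, by the most in group 7, with 14.60 beside 11.63 minutes. The quartiles of the other chromosomes in group 7 were 8.8 and 14.9 minutes.

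The delay of D was regional rather than even along the chromosome. Its quartiles were 9.49 and 17.35 minutes and its extremes 3.47 and 24.59, beside Trep errors (9-kb mean) of 0.63 minutes for A and 0.93 for D. When 1 time point was left out, single landmarks moved by unlike amounts. D minus A then ran from 11.4 to 18.5 minutes at V3 and from 12.4 to 18.0 at V1. At P4 it ran only from 8.4 to 8.9 and at P8 from 8.4 to 9.0. Stretches of at least 10 listed bins with a delay above 15 minutes, or below 10, were picked out with thresholds set after the values were seen. There were 8 of the first kind and 6 of the second.

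**Figure D4:**
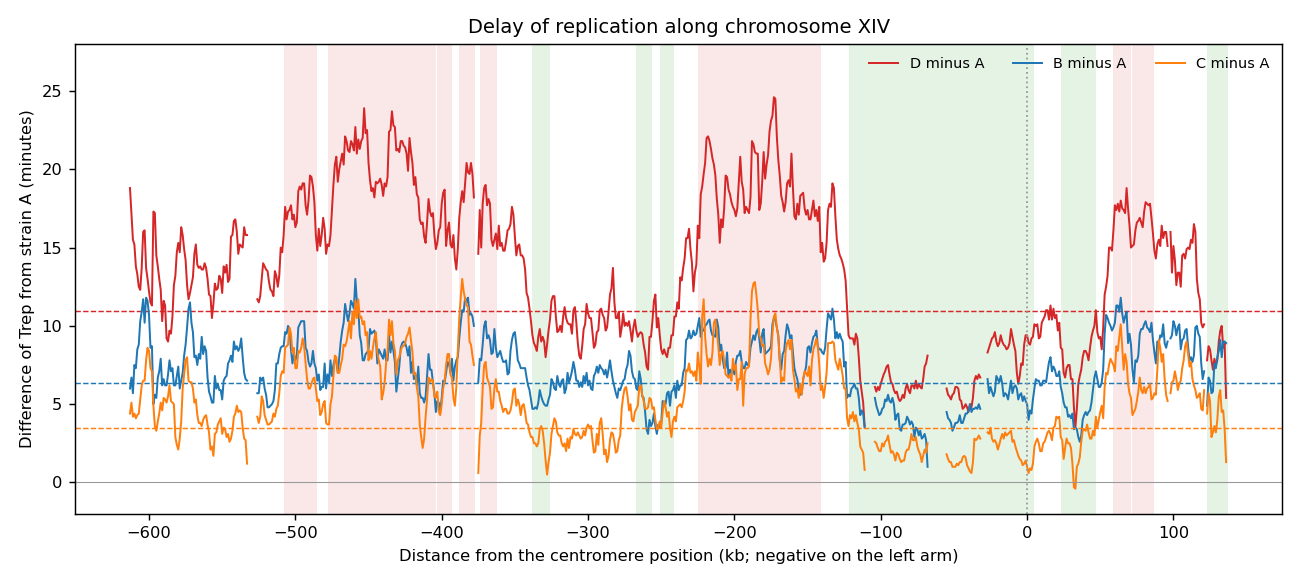
Trep minus that of strain A in minutes (y axis) for D, B and C against distance from the centromere position in kb (x axis, dotted line at 0). Dashed lines are the medians of the other 15 chromosomes, and shading marks stretches where D minus A was above 15 minutes (red) or below 10 minutes (green). The D minus A line exceeds 20 minutes around P2 and around P5 to V7 and lies mostly at 5 to 10 minutes in the long green stretch that holds P7, P8 and the centromere.

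The longest stretches of strong delay were on the left arm. From 151001 to 225000, a region of 36 genes around P2 and V3, 74 bins had a median delay of 20.3 minutes in D, and median Trep values of 38.8 minutes for A, 47.6 for B, 47.3 for C and 59.4 for D. From 404001 to 488000, a region of 43 genes that holds P5, V6, P6 and V7, 84 bins had a median delay of 18.4 minutes, with Trep medians of 37.2, 45.4, 45.2 and 55.6 minutes. V6 (433001 to 434000) lies in POL1, which encodes the catalytic subunit of DNA polymerase alpha, and V7 (468001 to 469000) in MKT1, a post-transcriptional regulator. V6 gave 37.9 minutes in A and 58.7 in D, and V7 gave 39.2 and 60.2.

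Shorter stretches of strong delay lay nearby and on the right arm. The 23 bins from 121001 to 144000 had a median delay of 17.7 minutes. V4 (262001 to 263000), in PSY2, which encodes a regulatory subunit of the same PP4 phosphatase as Pph3, was in a stretch of 12 bins with a median of 17.6 minutes. On the right arm, 12 bins from 688001 to 700000, around P9, had a median of 17.4 minutes.

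The longest stretch of weak delay ran from 507001 to 634000, with 105 bins and 75 genes, and took in P7, V8, P8 and the centromere. Its median delay in D was 6.6 minutes (range 3.6 to 9.8), with Trep medians of 27.3 minutes for A, 32.3 for B, 29.0 for C and 34.4 for D. V8 (594001 to 595000), in the histone deacetylase gene HDA1, had the smallest D minus A delay of the landmarks, at 6.8 minutes, and was the earliest valley, at 28.5 minutes in A. Further stretches of this kind lay at 652001 to 676000, with 24 bins around V9 in ATP23 (median delay 7.5 minutes), and at 752001 to 766000 (median 8.2 minutes).

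Late timing and strong delay did not always go together. V5, among the latest valleys of A, was delayed by only 8.6 minutes in D, while P5, 28 kb away, was delayed by 21.8 (4.9 and 9.8 minutes with common scale factors). The Trep of V5 minus that of P5 was therefore 13.5 minutes for A, 8.9 for B, 10.1 for C and 0.3 for D. The profile of D was not flat between them, since a peak called in D alone began at 401001, with a Trep of 49.4 minutes. With a running maximum in time, C stood at 34.4 minutes at P5 and 50.6 at V5, so the difference in C was then larger than in A. Between P9 and V9, 26 kb apart, the difference was 8.6 minutes for A, 2.1 for B, 3.4 for C and -0.4 for D. There too a peak called in D alone lay between the landmarks, beginning at 680001, with a Trep of 45.6 minutes.

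Other flanks differed in how they changed. From P4 to V5, 62 kb, Trep rose by 21.0 minutes for A, 20.3 for B, 22.3 for C and 20.7 for D. From P1 to V2, 55 kb, the rise was 16.7, 13.6, 16.7 and 17.4 minutes. The flanks of P2 became shallower in B, C and D, from 9.4 minutes in A to 4.4, 3.9 and 4.1 towards V2 and from 10.8 to 6.4, 6.0 and 6.2 towards V3. From P4 to V4, 60 kb, the difference was 9.6 minutes in A, 12.2 and 12.6 in B and C, and 18.5 in D. From V7 to P7, 93 kb, the difference grew from 15.4 minutes in A to 23.8 in B, 22.1 in C and 28.4 in D, since P7 was delayed little and V7 much. Some of these spans were not single slopes, since peaks called in single strains lay within them. In A such peaks began at 496001 between V7 and P7 and at 279001 between V4 and P4. Between P2 and V3 they began at 195001 in A and B, 188001 in C and 183001 in D. Between P1 and V2 they began at 125001 in A and 126001 in B.

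**Figure D5:**
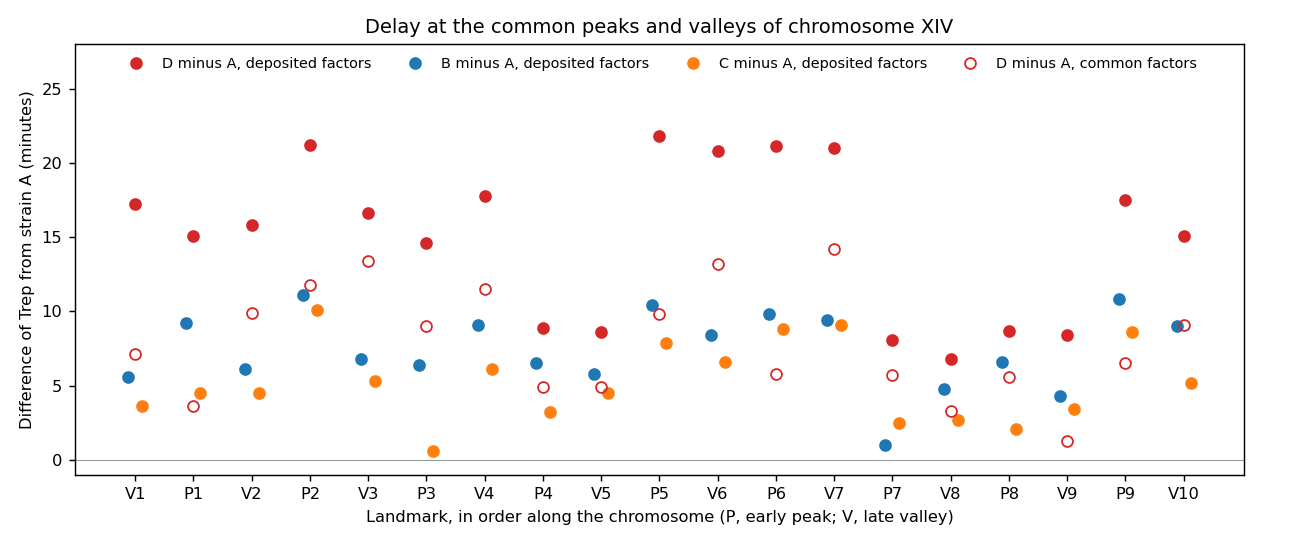
Difference of Trep from strain A in minutes (y axis) at each common landmark in order along the chromosome (x axis), for D, B and C with the deposited scale factors (filled) and for D with factors common to all strains (open). Filled D values reach 20.8 to 21.8 minutes at P2, P5, V6, P6 and V7 and 6.8 to 8.9 at P4, V5, P7, V8, P8 and V9, and open values lie lower at every landmark.

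The contrast between regions was also read with common scale factors. The stretches were picked on D minus A of these same libraries, so their order under another scaling is largely fixed by that choice and is given as a description. The 74 bins of the first strong stretch then had a median D minus A of 11.9 minutes and the 84 of the second 11.1, against 3.5 for the 105 bins of the long weak stretch. The medians of the 8 strong stretches ran from 5.1 to 12.0 minutes and those of the 6 weak stretches from -1.9 to 5.0. The order of single peaks was less firm: P6 then stood at 5.8 minutes, level with P7 at 5.7 and P8 at 5.6, while P4 at 4.9 and P1 at 3.6 lay below them.

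Libraries of A and D with nearly the same scale factor were also set side by side. Whether the factor measures bulk DNA content was not tested. It was 1.435 in A at 30 minutes and 1.425 in D at 40 minutes. At P5 the ratio over the library median was then 1.04 in A and 0.907 in D, at P6 1.04 and 0.918, at P9 1.09 and 0.944, and at P1 1.17 and 1.04. At P7 it was 1.49 in A and 1.39 in D. D minus A in this quotient ran from -0.15 at P9 to -0.01 at P3 over the 9 peaks. Over the valleys it was above 0 at 8 of 10, up to 0.13 at V8, with V4 at 0.0 and V6 at -0.02. The pattern was not particular to D. B at 35 minutes and C at 30 minutes had somewhat lower factors, 1.378 and 1.353. In this quotient B lay below A at every peak but P3, and C at every peak but P2 and P3. At P7 they gave 1.40 and 1.41. B lay above A at every valley, and C at every valley but V8.

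The region within 10 kb of the centromere, 21 bins, was early in each strain. Its ratio at 30 minutes was 1.78 for A, 1.35 for B, 1.61 for C and 1.30 for D, and its median Trep was 27.0, 32.5, 28.6 and 35.9 minutes. Minus the chromosome median, this was -8.2 minutes for A, -10.8 for B, -12.3 for C and -13.9 for D. With the deposited factors the centromere region was delayed by a median of 9.2 minutes in D, less than the chromosome as a whole. With common scale factors its distance from the chromosome median was -10.71 minutes in A and -10.33 in D, so the smaller delay of the region in D was not seen there. In relative timing, which needs no factor, the region stood at 3.25 minutes in A and 4.78 in D. B gave 3.97 and C 5.47, so D was not the highest. The chromosome median was -0.86 in A and -2.17 in D. The bin that holds the centromere was nearly level, at 2.24 in A and 2.22 in D. At 15 minutes the ratio of the region was 1.01 for A and 1.09 for D, beside library medians of 1.06 and 1.11. At 80 minutes it was 1.91 and 2.03, beside 1.93 and 1.98. A constant offset from the library median enters relative timing, and its share in D minus A was not tested. With the deposited factors, C was closest to A in the region, with a delay of 1.7 minutes against 5.0 over the chromosome.

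The ends behaved differently from each other. The 30 bins at the left end, from 16001 to 46000, had median Trep values of 41.3 minutes for A, 49.4 for B, 46.6 for C and 53.8 for D, later than the chromosome median by 6.0, 6.0, 5.7 and 4.0 minutes. V1 (33001 to 34000), in LEM3 and KRE1, genes of the plasma membrane and the cell wall, lay there at 43.5, 49.1, 47.1 and 60.8 minutes. The 14 bins at the right end with a value, from 752001 to 766000, had medians of 33.4, 41.0, 37.6 and 41.7 minutes, earlier than the chromosome median in each strain, with a difference of -1.9 minutes in A and -8.1 in D. There D was later than B by a median of only 0.6 minutes. The next 13 bins outward, which hold HXT17 and 4 other genes, were not listed, so the outermost part of the right arm is not described.

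The arms as wholes differed less in A than in D. The left arm, 583 bins, had a median Trep of 35.1 minutes in A and 50.6 in D, and the right arm, 135 bins, 35.4 and 47.1. The median D minus A delay was 14.3 minutes on the left arm and 11 on the right. V10 (725001 to 726000), the only right-arm valley besides V9, was delayed by 15.1 minutes.

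Peaks were also called in each strain alone, which gave 17 for A, 11 for B, 12 for C and 14 for D. Of the 17 peaks of A, 9 lay within 5 kb of a peak of B (52.9%), 8 of C (47.1%) and 6 of D (35.3%), where 15.3%, 17.3% and 21.4% of all chromosome XIV bins lay as near. Peaks of A near one in all 3 other strains began at 320001 and 693001, that is, beside P4 and P9. The 4 peaks of A near none in the others began at 247001, 279001, 496001 and 636001, with Trep in A of 32.2, 30.2, 31.4 and 25.9 minutes. Their prominences were 3.18, 3.82, 6.03 and 2.04 minutes, so only the peak at 496001 passed 4 minutes. The peak at 247001 lay 7 kb from P3, where B and C had a peak. With a prominence of at least 4 minutes the counts were 9, 6, 7 and 9, and with common scale factors they were 13, 11, 10 and 17. The number of peaks depended on both settings, and A did not have more than D under either of them.

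As a description across 718 bins, which are neighbours and not independent, Trep of A and B had a Pearson correlation of 0.94, A and C 0.93, A and D 0.86, and B and C 0.98. The profiles of B and C were the most alike of the 6 pairs, and those of A and D the least. On the other chromosomes the values were 0.93, 0.94, 0.83 and 0.97.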

How the data were processed

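Yeast DNA was sequenced after release from G1 in 4 strains. The deposited tables give, per the file headers, a ratio for each 1-kb bin that the authors made from S-phase reads over G1 reads of the same strain times a scale factor. The submitters' processing notes name Bowtie2 2.2.6, SAMtools 1.7.2, bedtools 2.26.0 and the build sacCer3. How the factor was set is not given in the sources used here. Of 72 samples, the 4 G1 libraries entered as denominators and 24 chromatin immunoprecipitation samples were not analysed here.

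Trep was computed with Python 3.11.15, numpy 2.4.6 and pandas 2.3.3, and figures were drawn with matplotlib 3.10.9. At least 3 of 5 bins were needed in each running mean, the 5-kb means were made monotone by an isotonic fit in time, and the crossing of 1.5 was interpolated. An earlier run used a running maximum in its place, and the isotonic fit replaced it after those values had been seen. The script was tested on simulated data. Libraries were grouped by their labels, with 1 per strain and minute, so strains were compared by differences without a test. Members, landmarks, stretches and alternatives were chosen with earlier results of these data known. All common peaks and valleys are accounted for, and those described in full are the 3 earliest and 3 latest peaks, the 3 latest valleys, the peaks with the largest and smallest D minus A delay, the centromere and both ends. Genes come from the RefSeq table of the same assembly, and positions count from 1. Planned measures at annotated origins were not made, since no origin annotation was used here, and no sequence is shown. Alternatives changed the running mean, the factors, the crossing level, the correction of bins, the prominence and the time points.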

Additional observations from a re-analysis of the deposited data

Results flagged for a closer look

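At 3 landmarks the difference in relative timing between sld3-R(2A) and SLD3 had opposite signs with Pph3 present (B minus A) and depleted (D minus C). It was at least 1 minute each way. Relative timing needs no scale factor, but any offset that a bin carries through the whole time course enters it. Higher values are earlier. The difference was not tested, as each strain had 1 culture. At V1, B minus A was 2.18 minutes and D minus C was -1.78. At V2 they were 1.94 and -1.98. At P3 they were 2.47 and -9.59, and there the single bin of C stood at 1.2 of its library median already at 15 minutes. At V1 the 5-kb ratio at 15 minutes was 1.03 in A and 1.06 in B, beside library medians of 1.06 and 1.05. At 80 minutes it was 1.83 and 1.99, beside 1.93 and 2.0. At V2 in A it was 1.02 at 15 minutes and 1.85 at 80 minutes, and in B 1.04 and 1.95. A was thus below its library median at both times and both valleys, and the share of this in B minus A was not tested.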

How the results depend on the processing

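The scale factors mattered most. With factors common to the strains, which take out any delay that the factors carry, the median delays on chromosome XIV were 3.10 minutes for B minus A, 2.98 for C minus A, 5.51 for D minus A, 2.30 for D minus B and 2.90 for D minus C, and the interaction turned from 0.78 to -0.10. Valley minus peak Trep was then 6.89 minutes in A (8.90 as deposited) and 11.13 in D (9.28), 0 bins passed 20 minutes, and the centromere minus the chromosome median was -10.71, -11.68, -13.44 and -10.33 minutes in A, B, C and D. The cause of the other changes below was not tested. With no running mean, D minus A was 13.03 minutes, valley minus peak in A 10.11, the bins above 20 minutes 104, and the centromere in D -13.05. With a 9-kb running mean, valley minus peak in D was 6.04, and D had 8 peaks and A 13. With Trep read halfway between the lowest and highest value of a bin, valley minus peak was 7.28 in A, 5.31 in B and 5.98 in C, and the centromere in A -9.35. After division by the mean profile at 15 and 80 minutes, valley minus peak was 7.37, 5.41, 6.21 and 6.96 in A to D, 38 bins passed 20 minutes, and the centromere in A was -9.08. With a prominence of at least 4 minutes, peaks numbered 9, 6, 7 and 9 in A to D. Alternatives chosen after seeing the data were the running maximum in time, which gave valley minus peak of 13.49 in C (9.78 with the isotonic fit) and a Trep in C of 29.1 minutes at P3 (35.4 in A) and 34.4 at P5, and leaving out P3, which gave 10.08 in A, 9.25 in B and 11.63 in D. Leaving out each of the 9 inner time points gave 30 to 76 bins above 20 minutes (65 with all), with the lowest count without 60 minutes. For the other measures the largest shift when a time point was left out is the margin against which a move was judged. D minus A at single landmarks moved by more than that margin at 18 of 19 with common factors, 9 with no running mean, 6 with 9 kb, 6 with the mean-profile correction and 3 at the midpoint. No paired analysis was possible because each strain and minute had 1 library and the labels carry no replicate numbers. Unknown read depth limits statements on single bins.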
